A study of Mus musculus with 8 samples.

Results

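DNA repair and checkpoint genes were followed in neonatal cardiomyocytes (NCMs) as 44 of the 27179 genes of the count table. They were listed by name for their roles by a rule that uses no measured value, although earlier results of these data were known when the list was made: 13 genes of homologous recombination, 10 of the Fanconi anaemia pathway, 3 of non-homologous end joining, 3 of mismatch repair, 7 of base excision and single-strand break repair, 4 of nucleotide excision repair and 4 checkpoint kinases. All 44 had enough counts to be tested.

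The RNA came from C57Bl/6J mice whose dams breathed filtered air (FA) or diesel exhaust (DE) from embryonic day 0.5 until late gestation, on 5 days of each week. Each library held the NCMs of 1 male heart taken on postnatal day 0, with FA replicates 2, 3, 4 and 6 and DE replicates 1, 3, 5 and 7, so that n = 4 in each group. The hearts were trimmed of vessels and atria, and in both groups the cells were preplated for 1 h with Ara-C, an inhibitor of DNA synthesis, to remove fibroblasts. The comparison asked which of these genes differed in level between offspring of the 2 exposures. Polyadenylated RNA was sequenced in bulk, so fewer cells of a type and less RNA per cell cannot be told apart. Between 17943024 and 39839737 fragments were counted in a library. In the sample names the FA libraries, DE 1 and DE 7 carry the prefix 11 and DE 3 and DE 5 the prefix 12, whose meaning is not stated in the sources used here. The markers of cardiomyocytes were abundant, with a summed level over 8 genes of 43460 to 45520 counts per 1000000 counts of the library (CPM) in FA and 32320 to 36850 CPM in DE. Most of that difference was Myh6, at means of 23300 and 14620 CPM, while Tnnt2, Tnni3 and Myl3 lay between -0.07 and -0.06 on the log2 scale and the median over the 8 markers was -0.15.

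Homologous recombination copies the sister chromatid to mend double-strand breaks and stalled replication forks, and it works with the Fanconi anaemia proteins, which unhook crosslinks between the strands. Mismatch repair corrects errors of replication, base excision repair removes small lesions such as oxidised bases and uracil, nucleotide excision repair cuts out bulky adducts, and end joining seals breaks without a template. ATM and ATR sense breaks and single-stranded DNA and signal through CHK2 and CHK1 to hold the cell cycle, and cardiomyocytes still divide at birth before most leave the cycle soon after.

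In DE NCMs the checkpoint kinase gene Chek1, the homologous recombination gene Rad51c and the Fanconi genes Fanci and Brip1 were called higher, and no member was called lower. These 4 of 44 members (9.09%) passed edgeR's quasi-likelihood test with an adjusted p of at most 0.05 and at least a 25% difference, where 5.8% of all 14966 tested genes were called, 3.58% higher in DE and 2.22% lower (536 and 332 genes, or 803 and 217 with library totals as the scale). At an unadjusted p under 0.05, 14 members were higher and 4 lower, beside 13.4% and 12.2% of all tested genes. For the 0 members called lower, DESeq2 called 1 (Rad51d), edgeR's likelihood ratio test and limma-voom called 0, the fit with length and GC offsets called 2 (Rad51d and Xpc), and the fit without DE 1 called 2 (Atm and Xpc). Regardless of size, 32 members were higher and 12 lower in DE (median log2 fold change 0.17), where 50.5% of all tested genes were higher and the median was 0.0037. With library totals the members split into 36 and 8, with the length and GC trends removed into 26 and 18, and the 12 members that changed sign under an alternative were all uncalled. With 1 library left out in turn, 1 member was called higher without FA 2, FA 3, FA 4 or DE 3, 2 without DE 5 or DE 7, and 3 without FA 6 or DE 1.

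**Figure D1:**
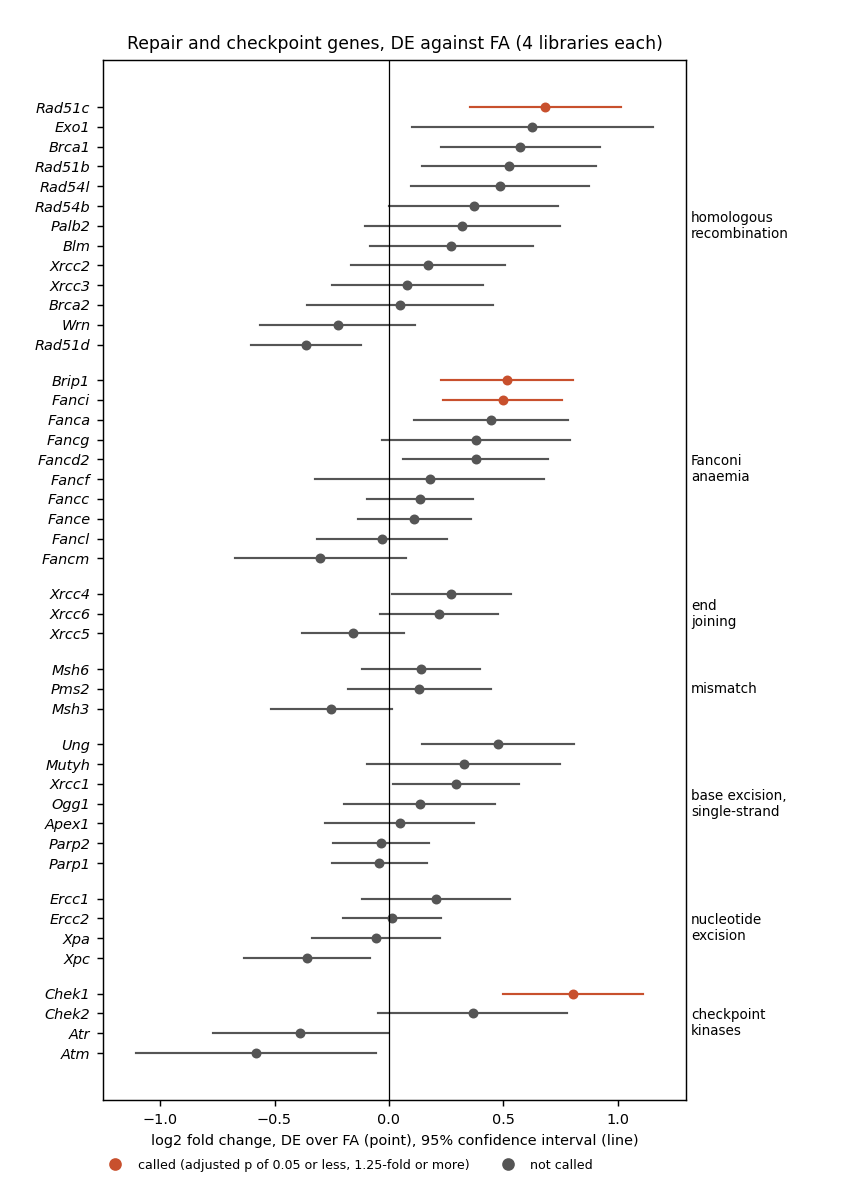
The log2 fold change (DE over FA, horizontal axis) of each of the 44 genes, with its 95% confidence interval as a line, grouped by role and ordered by size within a role. The 4 called genes are in colour, from Fanci at 0.50 to Chek1 at 0.80, and the lowest point is Atm at -0.58.

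Library values below are TMM-normalized CPM, listed in the order FA 2, 3, 4 and 6 and then DE 1, 3, 5 and 7. Chek1, which encodes the kinase CHK1 that acts below ATR, stood at 8.53, 7.52, 9.26 and 10.4 CPM in FA and at 12.6, 16.5, 17.4 and 15.9 CPM in DE. Every DE library lay above every FA library, with DE 1 the lowest of its group. The group levels were 8.93 ± 1.22 and 15.6 ± 2.09 CPM (mean ± SD, n = 4), a log2 fold change of 0.80 (SE 0.14, edgeR's quasi-likelihood test, adjusted p = 0.0102). Chek1 kept its call in all 8 fits that left out 1 library, and it lost it with the 25% difference built into the test (adjusted p = 0.0669) and in the libraries of prefix 11 alone (log2 fold change 0.66 with 2 DE libraries fewer, adjusted p = 0.0697).

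Atr, the kinase upstream of CHK1, stood at 38.6, 24.2, 42.3 and 36.7 CPM in FA and at 32.9, 22.6, 24.0 and 29.1 CPM in DE. The groups overlapped, because FA 3 lay as low as the DE libraries. Its log2 fold change was -0.39 (SE 0.17, adjusted p = 0.192 by edgeR). Atm, the kinase of the double-strand break response, stood at 39.6, 22.8, 37.4 and 28.3 CPM in FA and at 31.2, 16.2, 15.01 and 23.5 CPM in DE. Here too FA 3 was the lowest FA library, and DE 1 lay above 2 of the 4 FA libraries. Its log2 fold change was -0.58 (SE 0.24, adjusted p = 0.159 by edgeR), with a 95% interval from -1.11 to -0.06. Neither gene was called, and without DE 1 Atm was called at a log2 fold change of -0.83 (adjusted p = 0.0411). With each library's trend against transcript length and GC content removed, the values of Atm and Atr were -0.34 and -0.14, and with the prefix as a term they were -0.22 and -0.19. Chek2, the kinase below ATM, stood at 4.28, 5.18, 3.78 and 5.71 CPM in FA and at 5.54, 7.37, 6.83 and 4.48 CPM in DE. Of the DE libraries, DE 3 and DE 5 lay above all of FA and the others did not, and the log2 fold change was 0.37 (SE 0.19, adjusted p = 0.246 by edgeR).

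**Figure D2:**
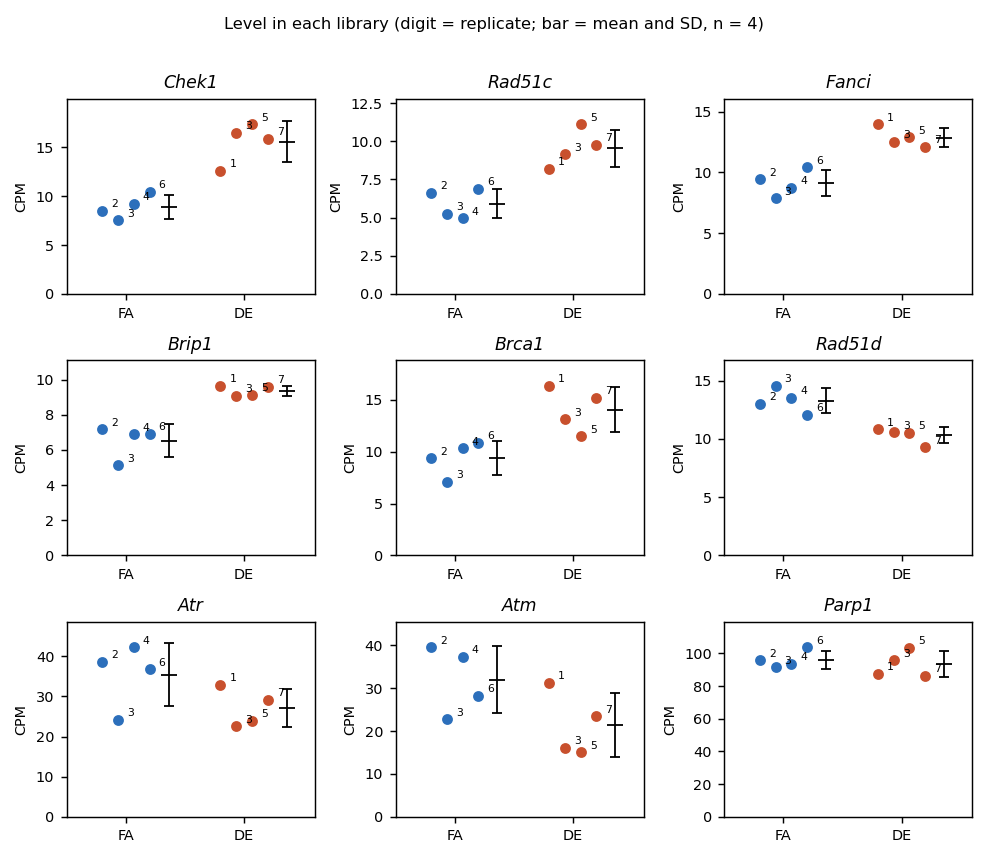
CPM (vertical axis, from 0) of 9 genes in each library, with digits giving the replicate and bars the mean and SD of each group (n = 4). Chek1, Rad51c, Fanci, Brip1 and Brca1 lie higher in every DE library than in any FA library, Rad51d lies lower in every DE library, and Atr, Atm and Parp1 overlap.

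Among the 13 homologous recombination genes, 11 were higher and 2 lower in DE (median log2 fold change 0.32), and 1 was called (7.69%, beside 5.8% of all tested genes). Rad51c, whose protein serves in complexes that promote strand exchange, stood at 6.604, 5.23, 4.97 and 6.89 CPM in FA and at 8.20, 9.15, 11.1 and 9.75 CPM in DE. The groups did not overlap, and the log2 fold change was 0.68 (SE 0.15, adjusted p = 0.0275 by edgeR). The call was kept without FA 6 or DE 1 and lost without FA 2, FA 3, FA 4, DE 3, DE 5 or DE 7, with adjusted p-values of 0.0638, 0.0664, 0.0972, 0.0688, 0.0639 and 0.0501 in that order and log2 fold changes from 0.60 to 0.76 over all 8 fits. It was also lost with the prefix as a term (log2 fold change 0.58, adjusted p = 0.0975), in the prefix 11 libraries (0.58, adjusted p = 0.129) and with the 25% difference built into the test (adjusted p = 0.176).

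The other genes of these complexes were not called, and they differed in sign. Rad51d, which follows RAD51C in the same complex, stood at 13.0, 14.6, 13.5 and 12.1 CPM in FA and at 10.8, 10.6, 10.5 and 9.27 CPM in DE. It was the 1 member of the 44 whose DE libraries all lay below the FA libraries, as 7.26% of tested genes did, and its log2 fold change was -0.36 (SE 0.11, adjusted p = 0.0733 by edgeR). Rad51b stood at 1.74, 1.64, 2.03 and 1.77 CPM in FA and at 2.30, 2.52, 3.09 and 2.35 CPM in DE. These groups did not overlap either, at a log2 fold change of 0.53 (adjusted p = 0.0930 by edgeR). Xrcc3, which pairs with RAD51C and had the highest level per length of this role (4.99 CPM per kb), stood at 12.1, 14.8, 10.1 and 10.03 CPM in FA and at 10.5, 12.0, 14.5 and 12.8 CPM in DE. Its groups overlapped throughout, and its log2 fold change of 0.08 was below 0 with the prefix as a term, in the prefix 11 libraries, with the length and GC offsets and without DE 5. Xrcc2 was at 0.17 (adjusted p = 0.512).

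Brca1, which promotes end resection, stood at 9.39, 7.13, 10.3 and 10.9 CPM in FA and at 16.4, 13.1, 11.5 and 15.2 CPM in DE. The groups did not overlap, and the log2 fold change was 0.57 (SE 0.16) with an adjusted p of 0.0562 by edgeR's quasi-likelihood test, just past the threshold. DESeq2, the likelihood ratio test, upper quartile factors, library totals, the length and GC offsets, the prefix term and the fit without DE 5 called it, with adjusted p-values from 0.00382 to 0.0477. Brca2, a mediator of strand exchange, overlapped between groups at 9.42 to 16.02 CPM in FA and 11.9 to 18.3 CPM in DE, and its log2 fold change of 0.05 turned to -0.10 without DE 1 and was also below 0 without FA 3. Palb2, which bridges BRCA1 and BRCA2, was at 0.32 (adjusted p = 0.322). The resection nuclease gene Exo1 and the strand exchange motors Rad54l and Rad54b were at 0.63, 0.48 and 0.37, with adjusted p-values of 0.136, 0.120 and 0.193, and of these Rad54l and Rad54b did not overlap between groups. Of the RecQ helicases, Blm was at 0.27 and Wrn at -0.22, and both overlapped between groups.

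The 10 Fanconi anaemia genes included 8 higher and 2 lower in DE (median log2 fold change 0.28), and 2 were called (20.0%, beside 5.8% of all tested genes). Fanci, which forms with FANCD2 the clamp that is ubiquitinated at crosslinks, stood at 9.44, 7.87, 8.75 and 10.4 CPM in FA and at 13.95, 12.5, 12.9 and 12.1 CPM in DE. The groups did not overlap, and the log2 fold change was 0.50 (SE 0.12, adjusted p = 0.0356 by edgeR). Of its exon bases 16.4% lie opposite the gene Polg, and the strand setting of the counting is not stated in the sources used here. Brip1, the helicase that binds BRCA1, stood at 7.17, 5.13, 6.89 and 6.93 CPM in FA and at 9.65, 9.09, 9.15 and 9.59 CPM in DE. Every DE library lay above every FA library, and the log2 fold change was 0.52 (SE 0.13, adjusted p = 0.0440 by edgeR). Fanci lost its call without FA 2, FA 3, FA 4, DE 1, DE 3 or DE 5, with adjusted p-values from 0.0555 to 0.121 and log2 fold changes from 0.43 to 0.51. Brip1 lost its call without any 1 of the 8 libraries, with adjusted p-values from 0.0592 to 0.112 and log2 fold changes from 0.42 to 0.57. Both also lost it with the prefix as a term (log2 fold changes 0.52 and 0.56, adjusted p = 0.0744 for Fanci and 0.0789 for Brip1), in the prefix 11 libraries (0.51 and 0.55, adjusted p = 0.115 and 0.119) and with the 25% difference built into the test (adjusted p = 0.382 and 0.378), and Brip1 without the count filter (adjusted p = 0.0526).

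Fancd2, the partner of FANCI, was higher in each DE library (12.9 to 17.3 CPM) than in any FA library (8.72 to 12.7 CPM), and its log2 fold change of 0.38 was not called (adjusted p = 0.133). Among the genes of the core ubiquitin ligase complex, Fanca and Fancg were at 0.45 and 0.38 (adjusted p = 0.105 and 0.226), and Fancc, Fancf and Fance at 0.14, 0.18 and 0.11. Fance had the highest level per length of this role, at 4.34 CPM per kb, with 8.45, 8.82, 8.69 and 7.87 CPM in FA and 9.47, 9.78, 9.10 and 8.10 CPM in DE. Its DE 7 library lay inside the FA range and the other DE libraries above it, with an adjusted p of 0.562. Fancl, the ligase subunit, was at -0.03, and Fancm, the DNA translocase that anchors the complex, was at -0.30 (adjusted p = 0.289). Fancf was the least abundant member, at 0.56 CPM per kb and 210 counts over the 8 libraries, and the 95% interval of its log2 fold change, -0.32 to 0.68, held the values of Fanci and Brip1.

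Over all members, 10 were higher in each DE library than in any FA library and 1 lower, beside 7.43% and 7.26% of tested genes. The 10 were Chek1, Rad51c, Fanci, Brip1, Brca1, Rad51b, Rad54l, Rad54b, Fanca and Fancd2, all of homologous recombination, the Fanconi pathway or the checkpoint. The 17 genes of the other roles held 0 of them, beside the 7.43% of tested genes, and 0 called genes, beside 5.8%. With 17 genes, counts of 0 lie near these shares. At an unadjusted p under 0.05 the 17 genes held 3 higher and 1 lower, beside 13.4% and 12.2% of all tested genes. The difference between roles was not tested.

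**Figure D3:**
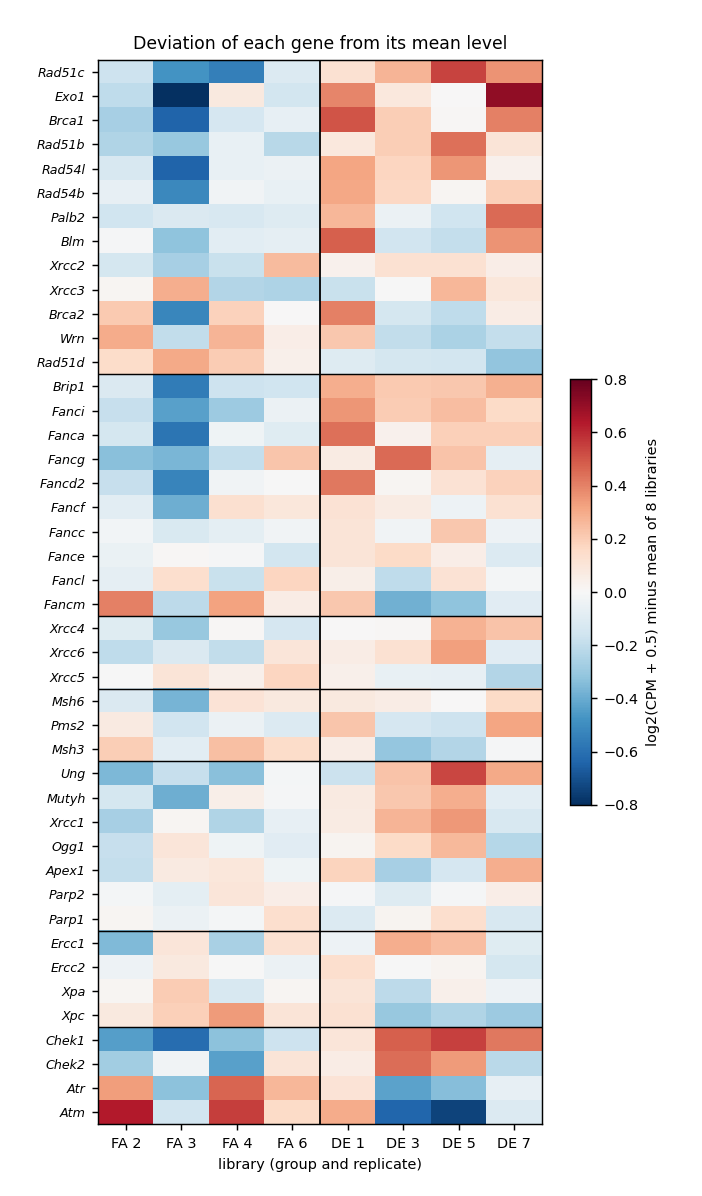
Each row is 1 gene and each column 1 library, and colour gives log2(CPM + 0.5) minus the mean of the gene over the 8 libraries, with black lines between roles and between FA and DE. FA 3 is the bluest column in the upper rows, DE 1 and DE 7 are redder than DE 3 and DE 5 in Brca1, Exo1, Blm and Atm, and Parp1 and Parp2 are nearly white throughout.

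The promoters of the called genes, and of Atm for contrast, are printed to show what lies at the start sites of genes that rose together and of 1 that did not. They are RefSeq windows on GRCm38.p6 of 250 bases before and 50 after a start, 5′ to 3′ on the strand of the gene, and capitals mark words of the E2F factors, which drive genes of DNA synthesis (GCGGGAA or GCGCCAA, searched on both strands). The windows are chr9:36726609-36726908, minus strand, for Chek1, chr11:87404905-87405204, minus strand, for the second of 2 Rad51c starts, chr7:79392088-79392387, plus strand, for Fanci, chr11:86201144-86201443, minus strand, for Brip1, and chr9:53536622-53536921, minus strand, for Atm.
Chek1: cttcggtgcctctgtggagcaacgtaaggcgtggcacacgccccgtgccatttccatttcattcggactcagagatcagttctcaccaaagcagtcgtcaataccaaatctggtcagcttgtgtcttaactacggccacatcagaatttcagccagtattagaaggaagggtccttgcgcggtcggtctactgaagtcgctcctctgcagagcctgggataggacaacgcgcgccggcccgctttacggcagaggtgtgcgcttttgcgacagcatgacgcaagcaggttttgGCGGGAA
Rad51c: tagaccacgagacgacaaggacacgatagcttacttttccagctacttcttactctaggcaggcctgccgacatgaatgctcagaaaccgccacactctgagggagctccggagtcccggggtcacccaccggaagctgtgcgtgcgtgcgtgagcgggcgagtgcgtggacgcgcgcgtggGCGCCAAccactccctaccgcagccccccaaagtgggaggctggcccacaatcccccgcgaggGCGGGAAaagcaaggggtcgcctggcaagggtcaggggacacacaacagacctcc
Fanci: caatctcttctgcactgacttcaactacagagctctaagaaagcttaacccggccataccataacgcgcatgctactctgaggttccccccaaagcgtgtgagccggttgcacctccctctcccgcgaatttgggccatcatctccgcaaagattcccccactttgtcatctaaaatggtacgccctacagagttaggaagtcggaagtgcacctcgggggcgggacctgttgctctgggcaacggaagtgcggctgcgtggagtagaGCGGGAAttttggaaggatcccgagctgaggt
Brip1: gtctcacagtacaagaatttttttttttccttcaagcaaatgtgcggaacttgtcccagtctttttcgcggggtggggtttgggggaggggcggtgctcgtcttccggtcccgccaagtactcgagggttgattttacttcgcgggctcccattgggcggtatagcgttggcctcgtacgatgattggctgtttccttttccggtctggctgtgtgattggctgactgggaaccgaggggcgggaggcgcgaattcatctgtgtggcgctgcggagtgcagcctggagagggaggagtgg
Atm: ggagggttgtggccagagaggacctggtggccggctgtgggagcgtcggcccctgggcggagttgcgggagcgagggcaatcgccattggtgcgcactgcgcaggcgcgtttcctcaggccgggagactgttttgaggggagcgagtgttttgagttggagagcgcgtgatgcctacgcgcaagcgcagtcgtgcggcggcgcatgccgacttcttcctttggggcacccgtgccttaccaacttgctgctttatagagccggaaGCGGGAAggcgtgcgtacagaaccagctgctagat

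An E2F word began 43 bases after the start in Chek1, 18 after it in Fanci and 15 after it in Atm, and the second Rad51c window held a pair at -68 and -5, whereas the window of its first start, which is not printed, held none. Brip1 held no such word in this window and 3 CCAAT boxes. Windows existed for 37 of the 44 members, all but Exo1, Fancd2, Rad51d, Rad54b, Wrn, Xpc and Xrcc2. Of the 37, 17 (45.9%) held an E2F word in a window, beside 13.8% of tested genes and 7.79% of all genes with a window. The words were spread over genes that rose and genes that did not: 3 of the 4 called genes, 5 of 10 members known to be transcribed with S phase entry and 12 of the other 27 (44.4%) held one. The CCAAT box was in 24 members (64.9%, against 42.5% of tested genes) and the GC box GGGCGG, which can share bases with an E2F word, in 26 (70.3%, against 66.8%). The cell cycle homology word TTTGAA was in 1 member (2.70%, against 14.3%), and the xenobiotic response word TNGCGTG in 3 (8.11%, against 9.02%), namely Msh3, Xrcc1 and, in the window not printed, Rad51c. These are matches of letters, given as a description.

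In mismatch repair 2 of 3 genes were higher (median log2 fold change 0.13), and 0 were called, beside 5.8% of all tested genes. Msh3, which recognises loops of several bases, stood at 21.6, 17.7, 22.2 and 20.8 CPM in FA and at 19.6, 15.1, 15.9 and 18.7 CPM in DE. DE 3 and DE 5 lay below all of FA, and the log2 fold change was -0.25 (SE 0.12, adjusted p = 0.216 by edgeR). Msh6, its counterpart for single mismatches, stood at 24.6, 20.5, 28.8 and 28.3 CPM in FA and at 28.2, 27.9, 26.8 and 29.8 CPM in DE. FA 2 and FA 3 lay below the DE range, and the log2 fold change was 0.14 (adjusted p = 0.481). Pms2, the endonuclease subunit, was at 0.13 (adjusted p = 0.590).

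In base excision and single-strand break repair 5 of 7 genes were higher, with a median of 0.13, and 0 were called, beside 5.8% of all tested genes. With library totals all 7 were higher (median 0.21), and with the length and GC offsets 3 were higher and 4 lower (median -0.03). Ung, the uracil glycosylase, stood at 15.8, 17.8, 16.03 and 20.2 CPM in FA and at 18.03, 24.0, 29.8 and 25.2 CPM in DE. DE 1 lay inside the FA range and the other DE libraries above it, and the log2 fold change was 0.48 (SE 0.15, adjusted p = 0.0849 by edgeR, and 0.0428 by DESeq2). Ung was also called by edgeR's likelihood ratio test (adjusted p = 0.0435). Without DE 1 it was called at a log2 fold change of 0.59 (adjusted p = 0.0251 by edgeR's quasi-likelihood test). The glycosylases for oxidised guanine and its mispairs, Ogg1 and Mutyh, were at 0.13 and 0.33 (adjusted p = 0.602 and 0.309), with 95% intervals of -0.20 to 0.46 and -0.10 to 0.75. The scaffold gene Xrcc1 was at 0.29 (adjusted p = 0.171). Parp1, the sensor of strand breaks and the most abundant member at 24.45 CPM per kb, stood at 95.7, 91.4, 93.5 and 104 CPM in FA and at 87.4, 95.8, 104 and 86.5 CPM in DE. DE 1 and DE 7 lay below the FA range and the other DE libraries inside it, and the log2 fold change of -0.04 had a 95% interval of -0.25 to 0.17. Parp2 was at -0.03 with an interval of -0.24 to 0.18. The endonuclease gene Apex1 was at 0.05, and because 70.8% of its exon bases lie opposite Pip4p1 its counts are uncertain.

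In nucleotide excision repair 2 of 4 genes were higher, with a median of -0.02, and 0 were called, beside 5.8% of all tested genes. Xpc, the sensor of helix distortion, stood at 17.7, 19.2, 21.3 and 18.1 CPM in FA and at 18.3, 13.5, 14.1 and 13.6 CPM in DE. DE 1 lay among the FA libraries and the others below them, and the log2 fold change was -0.36 (SE 0.13, adjusted p = 0.108 by edgeR). Without DE 1 it was -0.47 and called (adjusted p = 0.0347). Ercc1, the partner of the XPF nuclease, had the highest level per length of this role at 10.7 CPM per kb, with 11.3, 15.6, 12.1 and 15.8 CPM in FA and 14.1, 17.9, 17.3 and 13.5 CPM in DE. FA 3 and FA 6 lay among the DE libraries, and the log2 fold change was 0.21 (adjusted p = 0.401). Ercc2, a helicase of TFIIH, and the damage verifier Xpa were at 0.01 and -0.06, and 38.9% of the exon bases of Ercc2 lie opposite other genes.

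In non-homologous end joining 2 of 3 genes were higher, with a median of 0.22, and 0 were called, beside 5.8% of all tested genes. Xrcc4, the partner of ligase IV, stood at 11.5, 9.92, 12.4 and 11.2 CPM in FA and at 12.4, 12.5, 15.1 and 14.6 CPM in DE. DE 1 lay just below the highest FA library and the other DE libraries above it, with a log2 fold change of 0.27 (SE 0.12, adjusted p = 0.179 by edgeR). The Ku subunits stood apart in sign, Xrcc6 (Ku70) at 0.22 and Xrcc5 (Ku80) at -0.16, with adjusted p-values of 0.264 and 0.351.

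The medians of the roles moved with the libraries and the scaling. For homologous recombination the median ran from 0.19 without DE 7 to 0.44 with the prefix as a term, and for the Fanconi genes from 0.20 to 0.38, above 0 under every alternative. For end joining it was 0.09 with the prefix as a term and in the prefix 11 libraries and 0.14 without DE 5, and for mismatch repair 0.05 without FA 3, 0.07 without DE 1 and 0.04 without DE 7. For base excision repair it was 0.08 without FA 2 and 0.21 without DE 7. The medians of nucleotide excision repair, from -0.15 to 0.05, and of the checkpoint kinases, from -0.06 to 0.11, lay on both sides of 0.

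Within a library, the ratio of partner genes does not depend on the library's scaling. For 12 pairs, chosen after the values of their members were seen and given as a description, ratios of CPM were taken without correction for length. The Rad51c to Rad51d ratio was 0.360 to 0.571 in FA and 0.757 to 1.05 in DE. Chek1 to Atr ran from 0.219 to 0.311 in FA and from 0.383 to 0.733 in DE. Both pairs set a gene whose groups were already apart against one that pointed the other way. The Xrcc6 to Xrcc5 ratio was 1.27 to 1.41 in FA and 1.51 to 1.97 in DE. Msh3 to Msh6 ran from 0.736 to 0.875 in FA and from 0.540 to 0.694 in DE. In these last pairs neither gene was called alone. The Xrcc3 to Rad51c ratio was 1.46 to 2.82 in FA and 1.28 to 1.31 in DE. Here the groups of Rad51c, the denominator, were already apart. How often other pairs of genes would lie apart was not tested. The ratios of Fanci to Fancd2, Parp1 to Parp2, Palb2 to Brca2, Rad51b to Rad51c, Chek2 to Atm, Bard1 to Brca1 and Ercc1 to Ercc4 overlapped between FA and DE.

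**Figure D4:**
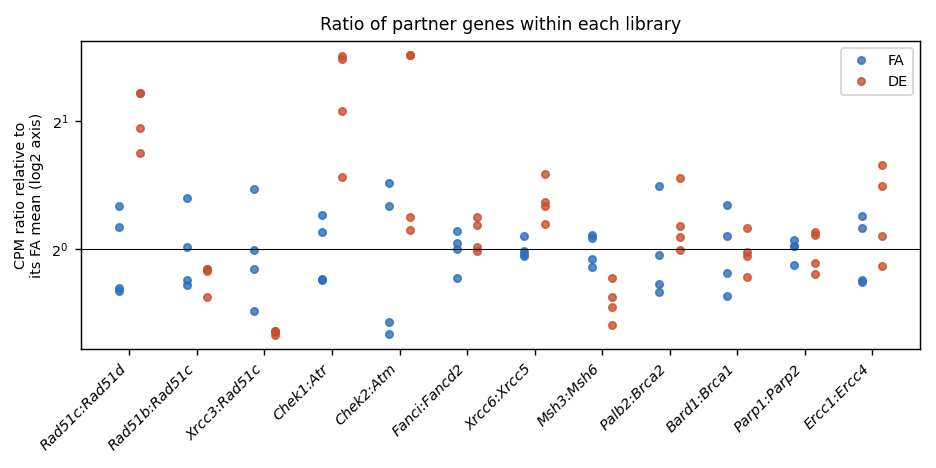
The CPM ratio of 12 pairs of partner genes in each library, divided by the FA mean of that pair (log2 vertical axis), with 4 FA and 4 DE points a pair. DE points lie apart from FA points for Rad51c to Rad51d, Xrcc3 to Rad51c, Chek1 to Atr, Xrcc6 to Xrcc5 and Msh3 to Msh6, and mix with them for the other pairs.

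Of the 44 members, 12 are known as genes transcribed with S phase entry: Brca1, Brca2, Rad54l, Exo1, Blm, Brip1, Fanca, Fancd2, Fanci, Msh6, Ung and Chek1. The split rests on general knowledge, was made with earlier results of these data known, and serves as a description. All 12 were higher in DE (median log2 fold change 0.48), and 3 were called, beside the 3.58% of all tested genes. The other 32 had 20 higher and 12 lower, a median of 0.12 and 1 called gene, Rad51c. The summed level of the 12 was 136, 109, 143 and 147 CPM in FA and 184, 164, 169 and 183 CPM in DE, whereas that of the 32 ran from 448 to 489 CPM in FA and from 445 to 483 CPM in DE. FA 3 was the lowest of the 8 libraries for 11 of the 12 genes and for 8 of the 32. Without FA 3 the median of the 12 was 0.38, with 11 higher and 1 lower (Brca2). The median of the 32 was 0.19 with library totals, 0.04 with the prefix as a term and in the prefix 11 libraries, and -0.03 with the length and GC offsets, where 14 were higher and 18 lower.

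A list of 16 replication genes, such as the Mcm helicase subunits and Pcna, is given beside these members. All 16 were higher in DE and 15 were called (median log2 fold change 0.73), and their summed level was 463 to 641 CPM in FA and 816 to 863 CPM in DE. The order within DE differed between the lists. DE 1 was lowest for replication (816 CPM) and highest for the 12 members (184 CPM). DE 3, at 861 CPM for replication, was lowest for the 12 members (164 CPM). Of 14 mitosis genes 2 were called higher, with a median of 0.27 and summed levels of 877 to 1203 CPM in FA and 1140 to 1404 CPM in DE. All 8 fibroblast markers were higher in DE (median log2 fold change 0.66), 6 of them at an unadjusted p under 0.05, and 2 were called (summed level 2008 to 3461 CPM in FA and 3655 to 6177 CPM in DE), and of 8 cardiomyocyte markers 2 were called lower (Myh6 and Pln). Endothelial markers (8 genes) were at 968 to 1283 CPM in FA and 1048 to 1559 CPM in DE, smooth muscle and pericyte markers (6 genes, of which Acta2 held most of the sum) at 1134 to 1771 and 799 to 1218 CPM, leukocyte markers (8 genes) at 12.4 to 18.7 and 15.8 to 26.7 CPM, and the 5 erythroid markers found at 429 to 1023 and 674 to 1123 CPM. Acta2 was at a log2 fold change of -0.63 (adjusted p = 0.0562 by edgeR), while 4 of the 6 smooth muscle and pericyte markers were higher in DE (median over the 6, 0.16). All 5 erythroid markers were higher in DE and 1 was called, Slc4a1, at a log2 fold change of 0.95 (adjusted p = 0.0422 by edgeR), and of the endothelial, smooth muscle and leukocyte markers 0 were called. Of the 8 endothelial markers 7 were higher in DE and 1 lower (median 0.27), with 4 higher at an unadjusted p under 0.05 by edgeR. Of the 5 leukocyte markers tested, 4 were higher and 1 lower (median 0.49), with 2 higher at that threshold. All 8 cardiomyocyte markers were lower in DE, 3 of them at that threshold. No marker was at 0 in all libraries. The part of replication and of other cell types in the level of the repair genes was not tested.

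**Figure D5:**
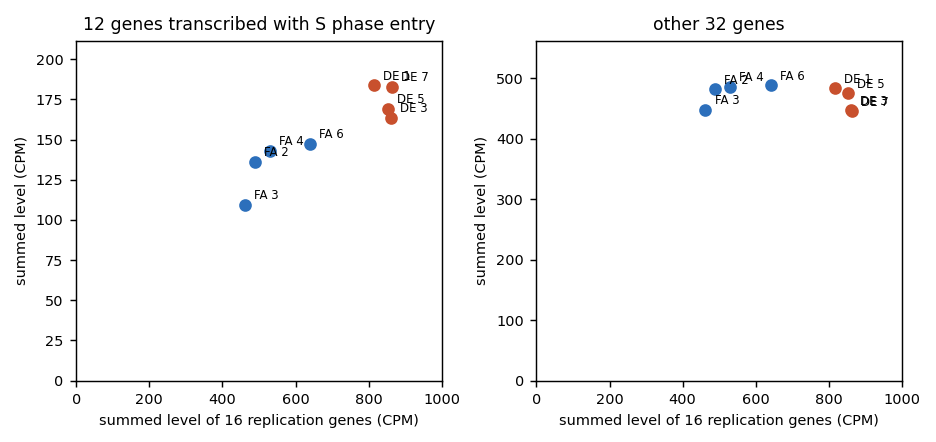
Summed level of 16 replication genes (horizontal axis, CPM) against the summed level of the 12 members transcribed with S phase entry (left) and of the other 32 members (right), 1 point a library. On the left the 4 DE libraries lie at 164 to 184 CPM above the FA libraries at 109 to 147 CPM, and on the right both groups lie between 445 and 489 CPM. Abundant genes such as Parp1 weigh most in the sum on the right.

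The DE libraries of the 2 prefixes were compared with FA apart, in a model of 3 groups. Its contrast of DE 1 and DE 7 with FA equals the fit with the prefix as a term and is not a separate result. DE 1 and DE 7 against the FA libraries gave 3 members called higher and 0 lower, beside 1.78% and 1.22% of tested genes. These were Brca1, Blm and Chek1, at log2 fold changes of 0.75, 0.55 and 0.67. DE 3 and DE 5 against the same FA libraries gave 8 called higher (Chek1, Rad51c, Rad51b, Ung, Chek2, Brip1, Fanci and Xrcc1) and 5 lower (Atm at -1.04, Atr at -0.61, Fancm at -0.53, Xpc at -0.47 and Msh3 at -0.41), beside 9.97% and 13.4% of tested genes. Both contrasts use the FA libraries and so are not independent. In the contrast between the DE libraries themselves, Blm was the 1 member called, lower in DE 3 and DE 5 by a log2 fold change of -0.61 (adjusted p = 0.0480 by edgeR), beside 1.54% of tested genes called lower and 0.528% higher. Fanci and Brip1, at 0.52 and 0.56 in the first contrast and 0.48 and 0.48 in the second, were at -0.04 and -0.08 (adjusted p = 0.903 and 0.815), and Rad51c was at 0.18 (adjusted p = 0.590). Chek1, called in both contrasts with FA, was at 0.26 in that contrast (adjusted p = 0.373) and Atm at -0.82 (adjusted p = 0.0842). No FA library carries prefix 12, so within prefix 12 there is no comparison with FA.

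Transcript length moved with some of these values. Across all tested genes of known length, Spearman's rho between length and log2 fold change was -0.335, and across the 44 members it was -0.014, which is a description since genes share libraries. Within single libraries, rho between length and the deviation of a member from its mean was 0.34, -0.492, 0.262 and 0.02 in FA and 0.614, -0.277, -0.459 and 0.212 in DE. The sign thus differed between libraries of the same group. The part of length in the differences was not tested. The 8 members with transcripts over 6000 bases had a median change of -0.09 on the log2 scale, the 28 with 2000 to 6000 bases one of 0.25, and the 8 under 2000 bases one of 0.16. Among the long ones Atm, Atr, Fancm and Wrn were lower and Brca1, Brca2, Exo1 and Brip1 higher. After removal of each library's trend with length and GC content, 8 members were called higher (Chek1, Rad51c, Fanci, Brip1, Brca1, Exo1, Blm and Fancd2) and 2 lower (Rad51d and Xpc), beside 6.15% and 5.41% of the genes tested in that fit.

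Of 74 further genes of the same pathways, 9 were called higher (12.2%) and 2 lower, beside the same 3.58% and 2.22% of tested genes, with 38 higher and 36 lower in all and a median of 0.01. The largest rise was in Lig1, the ligase of Okazaki fragments and of long patch base excision repair, with 21.9 ± 4.72 CPM in the FA libraries and 44.2 ± 2.45 CPM in the DE libraries (mean ± SD, n = 4), a log2 fold change of 1.02 (SE 0.14, adjusted p = 0.00300 by edgeR). Fen1, the flap nuclease of the same steps, and the glycosylase gene Neil3 rose by 0.54 and 0.50. Clspn, the adaptor through which ATR activates CHK1, and the fork protection genes Timeless and Tipin rose by 0.75, 0.64 and 0.69. The BRCA1 partner gene Bard1, the recombination gene Rad51ap1, and Ube2t, the conjugating enzyme of FANCL, rose by 0.57, 0.77 and 0.53. Mlh3, a mismatch repair and meiotic crossover gene, and Lig3, the ligase that works with XRCC1 and in mitochondria, fell by 0.64 and 0.58 on the log2 scale (adjusted p = 0.0101 and 0.0266 by edgeR). Over all 74 genes, 13 were higher and 6 lower with no overlap between the groups, beside 7.43% and 7.26% of tested genes. The count of 9 called higher dropped to 2 without FA 2, FA 3, FA 4 or DE 3, to 5 with the prefix as a term and to 1 in the prefix 11 libraries.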

How the data were processed

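RNA of NCMs from 4 FA and 4 DE male neonates was sequenced. The study's methods give n = 3 per group for RNA sequencing, and all 8 deposited libraries were used. The authors prepared stranded polyadenylated libraries, aligned the reads with TopHat to mm10 (Ensembl v67), marked but kept duplicates, and ran featureCounts. The deposited values are unnormalized counts of fragments for each Entrez gene. How featureCounts treated strand and reads with several placements, and its annotation, are not given in the sources used here, so counts of overlapping genes are uncertain. Each library is 1 heart, and dams or litters are not given in the sources used here, so p-values cover the spread between these hearts only. Kept duplicates make counting precision look better than it is.

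Totals ran from 17943024 to 39839737 fragments. Entrez IDs were matched to symbols and promoters through RefSeq tables of GRCm38.p6, and transcript lengths came from GENCODE M21. Counts were filtered by filterByExpr (minimum count 10), scaled by TMM factors and tested in R 4.3.3 by edgeR 4.0.16 (glmQLFit, glmQLFTest), with exposure as its one term. The p-values of all 14966 tested genes were adjusted together by Benjamini and Hochberg's method, and calls needed an adjusted p of at most 0.05 and at least a 25% difference. The biological coefficient of variation was 15.9%. CPM used the same factors, and levels were compared between genes per kb of the longest coding transcript. Library values are given for called members, for the most abundant member and the one with the smallest p in each role, for the checkpoint kinases, and for Brca1, Rad51d and Rad51b, which were chosen after their values were seen. The members, roles and lists were chosen with earlier results of these data known. The code was tested on simulated data.

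The comparison was repeated with DESeq2 1.42.0, limma-voom (limma 3.58.1) and edgeR's likelihood ratio test, with the 25% difference inside the test and with no fold threshold, with 3 other scalings (relative log expression, upper quartile, library totals), without a filter and with one at a mean of 1 CPM, with the prefix as a term and in the prefix 11 libraries, with spline offsets (5 degrees of freedom) for transcript length and GC content, which were known for 92.55% of tested genes, and with each library left out in turn.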

Additional observations from a re-analysis of the deposited data

Results flagged for a closer look

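In each group of 4 libraries, the highest or lowest value was compared with its nearest neighbour, relative to the range of the group. Of 88 member groups, 5 held a library far from the others, and chance marks about 1 in 20. FA 3 stood low for the recombination genes Rad54l (2.24 CPM, with the other FA libraries at 3.42 to 3.64) and Rad54b (2.19 CPM, with the others at 3.18 to 3.27) and for the called Fanconi gene Brip1 (5.13 CPM, with the others at 6.89 to 7.17). Without FA 3, Brip1 had a log2 fold change of 0.42 and was not called (adjusted p = 0.0787 by edgeR). DE 1 stood high for the RecQ helicase gene Wrn (12.5 CPM, with the other DE libraries at 8.90 to 9.33) and for Xpc, the sensor of nucleotide excision repair (18.3 CPM, with the others at 13.5 to 14.1).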

How the results depend on the processing

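Leaving out 1 library gave 1 to 3 members called higher and 0 to 2 lower (main 4 and 0), with both lower calls, Atm and Xpc, in the fit without DE 1. Over all genes these fits gave 123 to 641 higher and 112 to 527 lower (main 536 and 332), and over the further pathway genes 2 to 10 higher and 1 to 3 lower (main 9 and 2). Of 20 alternatives, Chek1 kept its call in 18, Rad51c in 11, Fanci in 11 and Brip1 in 8. The 32 losses, 19 gains and 33 changes of sign among single members stand beside 795 results that kept both sign and side of the threshold, and the causes were not tested. No paired analysis was possible because the groups share fewer than 2 replicate numbers. Depth limits the least abundant members, such as Fancf.

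For all genes, calls higher and lower were 913 and 715 by DESeq2, 933 and 670 by the likelihood ratio test, 44 and 70 with the 25% difference built in, 803 and 217 with library totals, 266 and 182 with the prefix as a term, 143 and 117 in the prefix 11 libraries and 852 and 750 with length and GC offsets. Members called higher were 0 with the 25% difference built in and in the prefix 11 libraries and 8 with offsets, and members called lower were 1 by DESeq2 and 2 with offsets. Further pathway genes called higher were 1 with the 25% difference built in, 5 with the prefix as a term, 1 in the prefix 11 libraries and 16 with offsets, and those called lower were 6 by DESeq2, 6 by the likelihood ratio test, 0 with the 25% difference built in, 1 in the prefix 11 libraries and 5 with offsets.

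The log2 fold changes that turned sign were small. With offsets they were -0.040 for Xrcc3, -0.092 for Fance, -0.019 for Fancf, 0.021 for Fancl, -0.031 for Ogg1, -0.091 for Apex1, -0.006 for Ercc1 and -0.096 for Ercc2. With library totals they were 0.039 for Fancl, 0.029 for Parp1, 0.036 for Parp2 and 0.015 for Xpa. With the prefix as a term they were -0.020 for Xrcc3, -0.038 for Ogg1, 0.003 for Parp2 and 0.008 for Xpa, and in the prefix 11 libraries -0.024 for Xrcc3, -0.044 for Ogg1 and 0.003 for Xpa. With 1 library left out the lowest and highest values were -0.099 and 0.135 for Brca2, -0.003 and 0.204 for Xrcc3, -0.101 and 0.031 for Fancl, -0.055 and 0.137 for Apex1, -0.114 and 0.006 for Xpa, and -0.034 and 0.051 for Ercc2.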
